A study of Rattus norvegicus with 9 samples.

Results

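The fibrillar collagens are the chains that build the striated fibrils of connective tissue, and 9 of their genes were followed here in cultured rat cardiac fibroblasts: Col1a1, Col2a1, Col3a1, Col5a1, Col5a2, Col5a3, Col11a1, Col11a2 and Col27a1. They were taken by gene symbol from a table of 17337 genes. Col1a2, the partner chain of Col1a1, was left out because its annotation spans 2 loci and at most 21 reads were assigned to it in any library. Fibroblasts from Sprague Dawley hearts were compared at 3 ages. Fetal hearts were taken at embryonic day 18, neonatal hearts at postnatal day 1, adult hearts at 7 weeks of age, and each age has 3 RNA-seq libraries. At each age the freshly isolated cells (passage 0) were expanded in plastic flasks until confluent, in DMEM with fetal bovine serum, antibiotics and ascorbic acid, a cofactor of the enzymes that hydroxylate procollagen. All 9 libraries are therefore from untreated, unmodified cells after growth in serum. Nothing in the labels says that the cells were sorted or from how many animals each flask came, so p-values measure the spread between these libraries, which may be technical.

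Fibrillar procollagens are folded from 3 chains into a rod of Gly-X-Y repeats, trimmed of their propeptides outside the cell and assembled side by side. Types I and III form the bulk of fibrils in the heart wall, with type III associated with compliant tissue and with early repair. Types V and XI are minor chains that sit inside fibrils and set how fibrils start and how thick they grow; type V is the usual form in soft tissue and type XI in cartilage, although chains of both can combine. Type II is the main collagen of cartilage, and type XXVII is a shorter fibrillar chain known from developing cartilage and other embryonic tissue.

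Of the 9 genes, 6 matched the RefSeq table of promoters on build GRCr8 (Col5a1, Col5a2, Col5a3, Col11a1, Col11a2 and Col27a1). The table held no entry for Col1a1, Col2a1 and Col3a1. The 250 bases before the annotated start are shown for 4 genes whose transcripts took different courses with age, as given below: Col5a3 peaked in neonatal cells, Col5a2 fell moderately in adult cells, Col27a1 fell at each age and Col11a1 fell steeply in adult cells. Each is written 5′ to 3′ on the strand of the gene, and capitals mark the letters CCAAT or GGGCGG on either strand (ATTGG and CCGCCC on the reverse).
Col5a2, chr9:55090152-55090401, minus strand: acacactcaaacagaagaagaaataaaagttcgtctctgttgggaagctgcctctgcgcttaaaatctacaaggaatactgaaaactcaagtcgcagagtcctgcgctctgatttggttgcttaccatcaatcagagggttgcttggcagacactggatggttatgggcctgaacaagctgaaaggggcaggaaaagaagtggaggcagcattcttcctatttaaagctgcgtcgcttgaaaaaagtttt
Col5a3, chr8:27625949-27626198, minus strand: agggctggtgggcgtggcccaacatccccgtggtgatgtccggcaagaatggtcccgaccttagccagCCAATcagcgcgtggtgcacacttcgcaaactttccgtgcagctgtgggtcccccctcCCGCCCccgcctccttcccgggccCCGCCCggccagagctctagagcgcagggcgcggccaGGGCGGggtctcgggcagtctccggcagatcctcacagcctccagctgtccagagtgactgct
Col11a1, chr2:204508886-204509135, plus strand: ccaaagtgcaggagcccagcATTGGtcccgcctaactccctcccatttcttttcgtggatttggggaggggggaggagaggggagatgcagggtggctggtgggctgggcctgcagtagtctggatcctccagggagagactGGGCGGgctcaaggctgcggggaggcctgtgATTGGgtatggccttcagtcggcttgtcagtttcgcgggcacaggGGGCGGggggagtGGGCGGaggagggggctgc
Col27a1, chr5:81662658-81662907, plus strand: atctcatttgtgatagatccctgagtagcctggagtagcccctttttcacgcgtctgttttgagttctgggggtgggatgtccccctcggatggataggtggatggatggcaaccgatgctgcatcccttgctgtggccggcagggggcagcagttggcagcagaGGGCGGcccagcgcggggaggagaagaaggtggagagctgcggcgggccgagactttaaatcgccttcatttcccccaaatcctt

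CCAAT, the box bound by the factor NF-Y, was found in the windows of 2 of the 6 genes, Col5a3 and Col11a1. It was present in 34.0% of the 33469 windows of the same length in the table. GGGCGG, the GC box bound by Sp1 and its relatives, was in 5 of the 6 windows, all but that of Col5a2, against 30.5% of all windows. TATAAA was in 0 of the 6 windows and in 12.9% of all windows. The Col5a2 window was also the poorest in G and C, at 44.8%, against 58.8% for Col27a1, 65.6% for Col11a1 and 68.8% for Col5a3. These matches describe letters in one window and not binding. Whether they relate to the courses below was not tested.

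Library totals ran from 13392825 to 22850491 assigned reads. All levels below in CPM (reads of a gene per 1000000 assigned reads) were scaled by TMM, which aligns libraries on the assumption that most genes do not change. Fetal replicate 3 stood apart from the other fetal libraries: reads from markers of lung epithelium summed to 229 CPM there, against at most 4.19 CPM in fetal replicates 1 and 2, with Cdh1 at 113, Cldn18 at 58.5 and Epcam at 46.9 CPM, although the surfactant genes Sftpa1 and Sftpb were at 0 in every library. In that library 6 of the 10 lung markers and 11 of the 12 macrophage markers were above both other fetal libraries, the latter summing to 64.7 CPM against at most 15.1. Cells of other types were also read. The 13 cardiomyocyte markers summed to 10162 to 14439 CPM in fetal, 6571 to 7212 in neonatal and 305 to 320 in adult libraries, and all 13 were lower in every adult library. Tnnt2, at 303 to 316 CPM, made up nearly all of the adult sum, and every other marker of the list was at most 1.65 CPM there. The 12 macrophage markers summed to 14.3 to 64.7 CPM in fetal, 111 to 123 in neonatal and 2984 to 3885 in adult libraries, and all 12 were higher in every adult library. The 10 fibroblast markers were all detected at every age. They summed to 4555 to 5095 CPM in fetal, 6069 to 6122 in neonatal and 8033 to 8338 in adult libraries. Of these 10, 7 were higher and 2, Ddr2 and Lum, lower in every adult library than in all others. Vim made up most of the sum at every age. It was at 3363 to 3943 CPM in fetal, 4195 to 4284 in neonatal and 4804 to 5782 in adult libraries. S100a4 was next in adult libraries, at 934 to 1075 CPM, and the part of other cells in these sums was not tested. Of the fetal libraries, replicate 3 was highest for Vim. In contrast, 5 of the 10 were lower in that library than in fetal replicates 1 and 2. Dcn was at 19.1 against 63.4 and 67.8 CPM, Lum at 46.0 against 162 and 164, Thy1 at 43.3 against 95.8 and 91.6, and Tcf21 at 6.90 against 14.1 and 14.4. Ddr2 was also lower there, at 189 against 225 and 239 CPM. The other 5, Vim among them, were above both other fetal libraries. Pdgfra was at 151 against 106 and 109 CPM, S100a4 at 470 against 294 and 303, Gsn at 222 against 213 and 203, and Dpt at 3.82 against 0.270 and 0.353. In such mixed cultures fewer cells of a type and less RNA per cell cannot be told apart, and the part of these other cells in the collagen differences was not tested.

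All 9 collagens changed with age. With edgeR's quasi-likelihood test of any difference among the 3 ages, 9 of 9 passed an adjusted p of 0.05, as did 77.6% of all 11337 genes tested. By mean, 6 were highest in neonatal cells, 2 (Col2a1 and Col27a1) in fetal and 1 (Col11a2) in adult cells, and 8 of 9 were lowest in adult cells. From fetal to neonatal cells 4 of 9 were called, against a background of 36.3% of all genes, 2 higher (18.3% of all genes) and 2 lower (18% of all genes). Fetal and neonatal libraries did not overlap for 7 of 9 (57.4% of all genes), 4 higher (29.2% of all genes) and 3 lower (28.1%). The adult comparison with neonatal cells called 8 of 9 (background 63.5%), 7 lower (31.8% of all genes) and 1 higher (31.6%). For all 9 these libraries did not overlap (76.1% of all genes), 8 lower (38.5%) and 1 higher (37.6%). Col2a1, among the 8 lower, was not called and had only 1 to 7 reads in neonatal and 0 in adult libraries. For adult against fetal cells 7 of 9 were called (background 70.5%), 6 lower (35.5% of all genes) and 1 higher (34.9%). There was no overlap for 6 (71.8% of all genes), 5 lower (35.8%) and 1 higher (35.9%). The median log2 difference of the 9 was 0.10 from fetal to neonatal, -1.42 from neonatal to adult and -0.80 from fetal to adult cells, beside -0.01 for all genes in each. The 3 comparisons share libraries, so that their counts are not independent of each other.

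**Figure D1:**
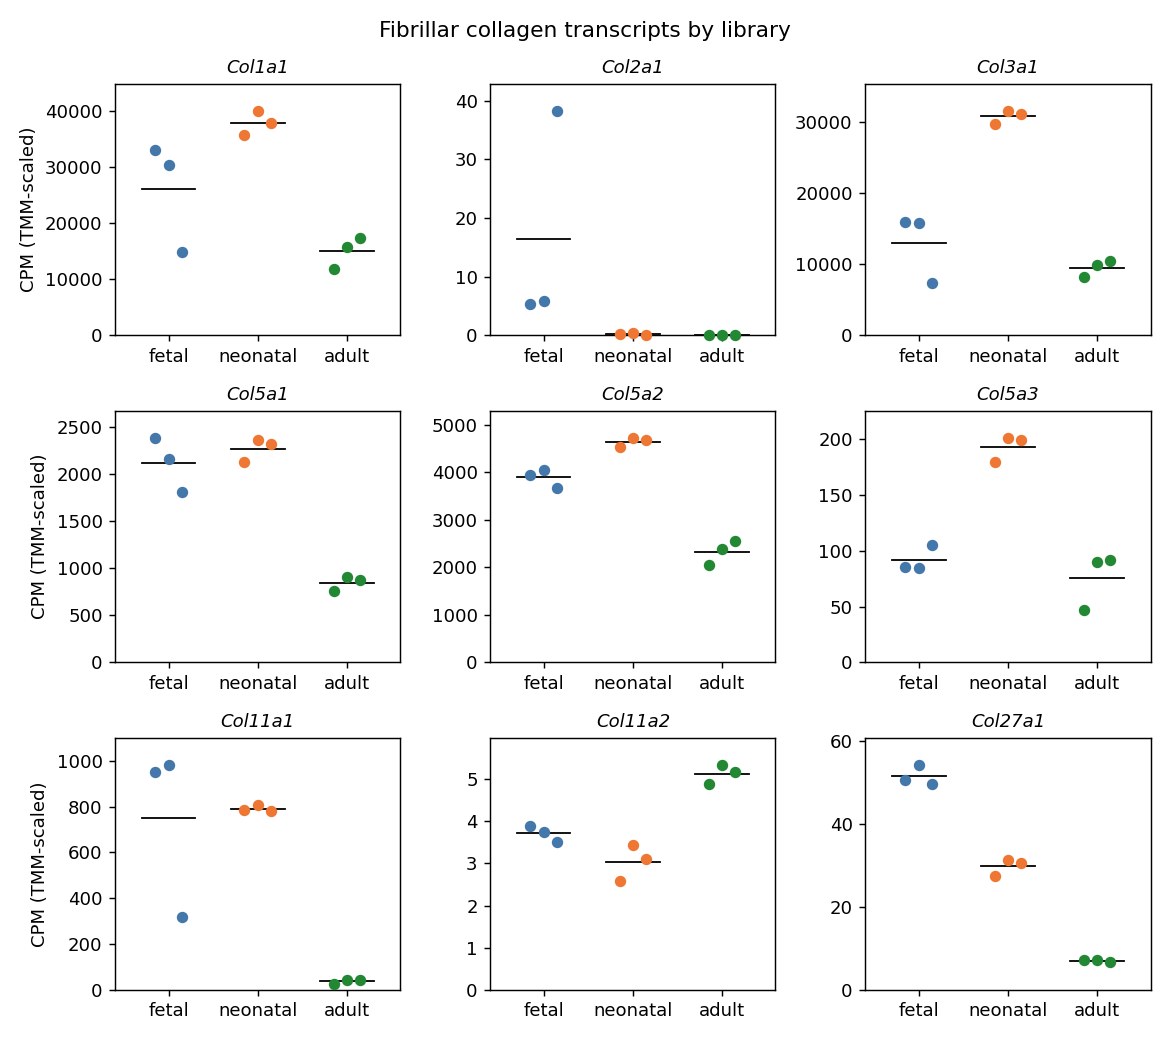
TMM-scaled CPM (linear axes from 0) of each fibrillar collagen gene in the 9 libraries, as points by age with replicates 1 to 3 from left to right, and horizontal lines for the means of 3. Adult libraries are lowest for every gene except Col11a2, with overlap for Col1a1, Col3a1 and Col5a3, and fetal replicate 3 departs from the other fetal libraries for Col1a1, Col2a1, Col3a1 and Col11a1.

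Together the 9 genes took 5.75%, 5.47% and 3.25% of the assigned reads in fetal replicates 1, 2 and 3. In neonatal libraries the share was 6.95%, 7.51% and 7.31%, and in adult libraries 2.22%, 2.90% and 3.12%. Neonatal shares lay above all others, and adult shares below all others, the nearest being fetal replicate 3. The summed level of the 8 mural cell markers, genes of pericytes and smooth muscle of which Acta2 is also made by activated fibroblasts, was likewise highest in neonatal libraries (12882 to 13368 CPM). It was 6013 to 9901 CPM in fetal libraries, with replicate 3 lowest, and 3796 to 6117 CPM in adult libraries. Acta2 was the largest term in every library, at 5348 CPM in fetal replicate 3 against 8212 and 7989 in the other fetal libraries, and 3 of the 8 were lower in every adult library than in all others. The part of mural cells in the collagen share was not tested. Col1a1 and Col3a1 made up 78.6% to 89.8% of the reads of the 9 genes in every library. The group's summed output was thus mostly that of these genes.

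Col1a1 encodes the alpha 1 chain of type I collagen, the most abundant protein of the cardiac scar and of tendon and bone. The gene lies on chromosome 10 (82745801 to 82762790, plus strand, rn6), with 51 exon intervals and 5826 exon bases. It measured 32977, 30302 and 14794 CPM in fetal replicates 1 to 3, 35590, 40009 and 37744 in neonatal and 11886, 15685 and 17306 in adult libraries. Neonatal libraries were above all others, while fetal replicate 3 fell within the adult range. Adult cells were 2.53-fold below neonatal cells (log2 -1.34, SE 0.276, edgeR adjusted p = 0.00221). Against fetal cells the log2 difference was -0.80 (SE 0.273, edgeR adjusted p = 0.0252). That call was lost in 6 of 16 alternative fits, including those without fetal replicate 1, fetal replicate 2, adult replicate 1 or adult replicate 2 (edgeR adjusted p = 0.0920, 0.0781, 0.0813 and 0.0573), and the difference was -1.08 without fetal replicate 3. From fetal to neonatal cells the difference of 0.54 (SE 0.272) did not pass the test (edgeR adjusted p = 0.148). Per kilobase of exon Col1a1 ranked 2nd to 5th of all genes in fetal, 3rd to 4th in neonatal and 9th to 23rd in adult libraries.

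Col3a1 encodes the single chain of type III collagen, which co-assembles with type I in the fibrils of distensible tissue. It lies on chromosome 9 (52023295 to 52059221, plus strand, rn6) and has 4769 exon bases. The gene peaked in neonatal cells: it measured 15882, 15725 and 7291 CPM in fetal, 29715, 31551 and 31112 in neonatal and 8153, 9827 and 10411 in adult replicates 1 to 3. Every neonatal library stood above every other one, and fetal replicate 3 was the lowest of the 9. Neonatal cells exceeded fetal cells by 1.25 on the log2 scale, or 2.37-fold (SE 0.263, edgeR adjusted p = 0.00647), and by 0.96 without fetal replicate 3. Adult cells were 3.25-fold below neonatal cells (log2 -1.70, SE 0.266, edgeR adjusted p = 0.000413). Between adult and fetal cells the log2 difference of -0.45 did not pass (SE 0.259, edgeR adjusted p = 0.143), but without fetal replicate 3 it was -0.74 and did (edgeR adjusted p = 2.05e-05).

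Among the chains of type V collagen, which nucleate type I fibrils, Col5a1 and Col5a2 fell in adult cells at levels far above those of Col5a3. Col5a1 (chromosome 3, 6430591 to 6578876, plus strand, rn6) measured 2388, 2167 and 1812 CPM in fetal, 2129, 2359 and 2319 in neonatal and 760, 910 and 875 in adult replicates 1 to 3. Fetal and neonatal libraries overlapped, and all adult libraries lay below them. Adult cells were 2.67-fold below neonatal (log2 -1.42, SE 0.119, edgeR adjusted p = 8.64e-06) and also below fetal cells (log2 -1.32, SE 0.119, edgeR adjusted p = 8.03e-06). From fetal to neonatal cells the log2 difference was 0.10 (SE 0.116, edgeR adjusted p = 0.542), and its sign flipped without fetal replicate 3 and with library size as the only scaling.

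Col5a2 is the neighbour of Col3a1 on chromosome 9 (52091088 to 52238735, minus strand, rn6), with its 3′ end facing that of Col3a1 across 31866 bases. It measured 3949, 4056 and 3671 CPM in fetal, 4526, 4724 and 4675 in neonatal and 2048, 2395 and 2546 in adult replicates 1 to 3. No library of one age fell within the range of another. Adult cells were 1.99-fold below neonatal (log2 -0.99, SE 0.100, edgeR adjusted p = 2.64e-05) and 1.67-fold below fetal cells (log2 -0.74, SE 0.0997, edgeR adjusted p = 0.000119). The neonatal excess over fetal cells was 0.25 on the log2 scale and did not pass (SE 0.0992, edgeR adjusted p = 0.0725), whereas 3 of 16 alternatives called it, DESeq2 among them (DESeq2 adjusted p = 0.0297). The neighbouring genes thus shared the direction of the fall in adult cells, while the neonatal rise of Col3a1 was 2.37-fold and that of Col5a2 1.19-fold. This difference between the genes was not tested.

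Col5a3, a less widespread type V chain, followed a course like that of Col3a1 at a low level. It lies on chromosome 8 (21786324 to 21831668, minus strand, rn6). Values were 85.6, 84.8 and 105 CPM in fetal, 179, 201 and 199.6 in neonatal and 46.6, 89.7 and 91.8 in adult replicates 1 to 3. Neonatal libraries were above all others, and fetal and adult libraries overlapped. Neonatal cells were 2.11-fold above fetal cells (log2 1.07, SE 0.224, edgeR adjusted p = 0.00678), and adult cells 2.54-fold below neonatal cells (log2 -1.35, SE 0.227, edgeR adjusted p = 0.000777). The adult to fetal difference of -0.27 did not pass (SE 0.224, edgeR adjusted p = 0.303).

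Col11a1 showed the steepest fall of the abundant members. It encodes the alpha 1 chain of type XI collagen, best known from cartilage but also used in the embryonic heart, and lies on chromosome 2 (216863428 to 217056523, plus strand, rn6). Its transcripts measured 953, 983 and 318 CPM in fetal, 784, 809 and 783 in neonatal and 25.5, 42.1 and 43.9 in adult replicates 1 to 3. The lowest fetal library, replicate 3, was still above every adult library. Adult cells were 21.3-fold below neonatal cells (log2 -4.41, SE 0.437, edgeR adjusted p = 3.44e-05) and 20.2-fold below fetal cells (log2 -4.34, SE 0.435, edgeR adjusted p = 2.49e-05). Over 16 alternatives the adult to fetal difference ran from -4.70 to -4.10 and was called in each. Fetal and neonatal cells differed by 0.08 on the log2 scale (SE 0.375, edgeR adjusted p = 0.892), with the sign flipped without fetal replicate 3 (-0.29) and with library size alone (-0.06).

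Col11a2, the second chain of type XI collagen, was near the lower end of what these libraries can measure, with 47 to 85 reads each. It lies on chromosome 20 (3830164 to 3859022, plus strand, rn6). It was the only member to rise in adult cells: values were 3.89, 3.75 and 3.51 CPM in fetal, 2.59, 3.44 and 3.11 in neonatal and 4.90, 5.34 and 5.17 in adult replicates 1 to 3. Adult libraries were above all others. They exceeded neonatal libraries 1.68-fold (log2 0.75, SE 0.176, edgeR adjusted p = 0.00435). The excess over fetal libraries (log2 0.47, SE 0.173, edgeR adjusted p = 0.0350) lost its call in 12 of 16 alternatives, among them DESeq2 (DESeq2 adjusted p = 0.0526), the fits without fetal replicate 1, 2 or 3, neonatal replicate 2 or 3 and adult replicate 2 or 3, and library size alone. The adjusted p (edgeR or DESeq2) over all 16 ran from 0.0349 to 0.0950. From fetal to neonatal cells it was not called (log2 -0.28, SE 0.175, edgeR adjusted p = 0.226).

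Col27a1, the chain of type XXVII collagen, fell at each step with little spread. The gene lies on chromosome 5 (79055521 to 79170765, plus strand, rn6). Fetal replicates 1 to 3 held 50.5, 54.2 and 49.7 CPM, neonatal replicates 27.5, 31.3 and 30.5 and adult replicates 7.11, 7.15 and 6.66. The 3 ages did not overlap, and fetal replicate 3 did not depart from the other fetal libraries. Neonatal cells were 1.73-fold below fetal cells (log2 -0.79, SE 0.0789, edgeR adjusted p = 0.000146), and adult cells 4.27-fold below neonatal (log2 -2.09, SE 0.0892, edgeR adjusted p = 1.42e-07) and 7.37-fold below fetal cells (log2 -2.88, SE 0.0896, edgeR adjusted p = 1.36e-08). All 3 differences were called in each of their 16 alternatives.

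Col2a1, the chain of cartilage type II collagen, was a trace transcript outside fetal cells. It lies on chromosome 7 (139455242 to 139483997, minus strand, rn6). Reads numbered 98, 132 and 721 in fetal, 5, 7 and 1 in neonatal and 0, 0 and 0 in adult replicates 1 to 3, which is 5.29, 5.82 and 38.3 CPM in the fetal libraries. Fetal replicate 3 was thus 6.89 times the mean of the other fetal libraries. With 3 reads per library as the floor, adult cells were at least 73.7-fold lower than fetal cells, and at least 24.8-fold lower without fetal replicate 3 (edgeR adjusted p = 0.00196 with and 2.07e-06 without that library). The floor covers counting error only. Neonatal cells were 68.4-fold below fetal cells (log2 -6.09, SE 1.15, edgeR adjusted p = 0.00807), with a log2 difference of -4.53 without fetal replicate 3. DESeq2 gave no adjusted p for Col2a1 in any comparison. The adult to neonatal difference, at these few reads, was not called (edgeR adjusted p = 0.303). Col2a1 passed the filter only through its fetal reads, and it was not tested when only adult and neonatal libraries were fitted. The call that appeared without fetal replicate 3 (edgeR adjusted p = 0.00895) compares 1 to 7 reads with 0, and nothing is drawn from it.

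Cartilage genes were set beside Col2a1 in the same fetal library. Of the 13 cartilage markers listed, 11 were in the table, and their sum was 137 to 216 CPM in fetal, 275 to 293 in neonatal and 68.2 to 128 in adult libraries, with the lowest fetal sum in replicate 3. Col9a1 and Hapln1, whose products sit on type II fibrils and on aggrecan, were the 2 of 11 highest in fetal replicate 3, at 3.40 and 4.94 CPM, against at most 0.529 and 0.918 in the other fetal libraries. Acan, the aggrecan core protein, and Sox9, the cartilage transcription factor that drives Col2a1, were lower there, at 89.0 and 33.7 CPM, than in fetal replicates 1 and 2 (113 and 117 for Acan, 77.1 and 69.8 for Sox9). Acan was at 94.6 to 97.3 CPM in neonatal and at most 0.153 CPM in adult libraries, where Sox9 remained at 59.1 to 120 CPM. Matn1 and Ucma, other cartilage markers, reached at most 0.0550 CPM in any library. Lung epithelial markers were raised in the same fetal library, as given above, and their part in its Col2a1 level was not tested.

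**Figure D2:**
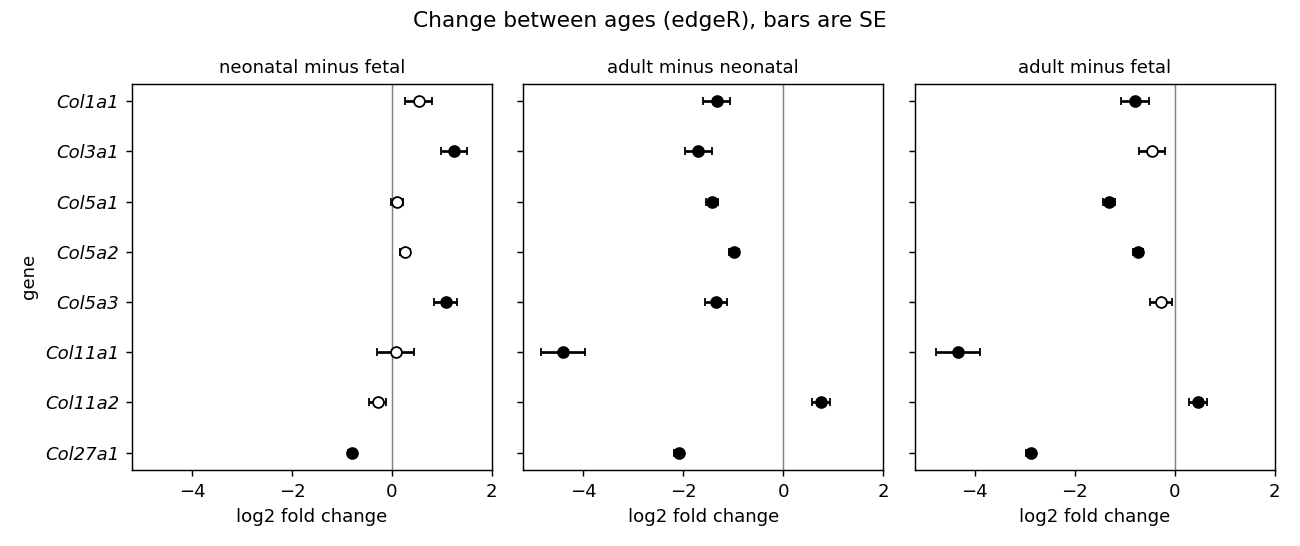
Log2 fold change between ages for 8 fibrillar collagen genes, with SE as horizontal bars and filled points for an edgeR adjusted p under 0.05. Col2a1 is left off because its adult libraries held 0 reads. Col11a1 and Col27a1 lie farthest to the left in both adult comparisons, at -4.41 and -4.34 for Col11a1 and at -2.09 and -2.88 for Col27a1, and Col11a2 lies to the right.

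Levels per kilobase of exon allow the genes to be ranked against each other. In fetal cells the order of mean CPM per kilobase was Col1a1 (4467), Col3a1 (2719), Col5a2 (640.3), Col5a1 (383), Col11a1 (97.9), Col5a3 (15.2), Col27a1 (9.24), Col2a1 (3.63) and Col11a2 (0.624). The Col1a1 and Col3a1 ranges overlapped across fetal libraries, though Col3a1 was lower in each of them. In neonatal cells the same order held down to Col27a1, with Col1a1 (6485 ± 379, SD, n = 3) and Col3a1 (6457 ± 201, SD, n = 3) closer than their spread, and Col11a2 (0.511) above Col2a1 (0.0488). In adult cells Col1a1 (2568) and Col3a1 (1984) again overlapped, followed by Col5a2 (383) and Col5a1 (153). Col11a1 (4.84, range 3.32 to 5.73) there fell below Col5a3 (12.6, range 7.70 to 15.2), which it had exceeded in every fetal and neonatal library.

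Ratios within a library do not depend on how libraries are scaled, and 5 were compared over the 3 ages with exact permutation tests over all 1680 assignments of the 9 libraries, two-sided, with p-values adjusted over the 5. A p from these tests says that the ages differed and not which of them did: 3 libraries against 3 cannot go below 0.1, so pairs of ages were not tested. All 5 passed an adjusted p of 0.05. For 3 of the 5 that call was lost when 1 library was left out, as given below.

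The ratio of Col3a1 to Col1a1, the balance of type III and type I chains, was 0.588, 0.634 and 0.602 in fetal replicates 1 to 3. It was 1.02, 0.963 and 1.01 in neonatal and 0.838, 0.765 and 0.735 in adult libraries. The ages did not overlap (exact p = 0.00357, adjusted 0.0179), and 0.00357 is the smallest p these assignments can give. Fetal replicate 3, with less than 50% of the mean Col1a1 of the other fetal libraries, kept their ratio. The call held in each leave-one-out fit.

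The ratio of Col5a1 to Col5a2, chains that combine in type V trimers, went from 0.663, 0.586 and 0.541 in fetal to 0.516, 0.548 and 0.544 in neonatal and 0.407, 0.417 and 0.377 in adult replicates 1 to 3. Fetal and neonatal values overlapped and adult values lay below both (exact p = 0.0107, adjusted 0.0268). This call, too, held with each library left out. Col5a2 was thus the more abundant transcript per kilobase in all 9 libraries.

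Col11a1 relative to Col5a1, homologous alpha 1 chains of the minor collagens, was 0.288, 0.328 and 0.127 in fetal and 0.266, 0.248 and 0.244 in neonatal replicates 1 to 3. In adult libraries it was 0.0242, 0.0334 and 0.0363, below every other library (exact p = 0.0357, adjusted 0.0446). The adjusted p was 0.0595 without any 1 neonatal library, adult replicate 2 or adult replicate 3, and 0.00595 without fetal replicate 3.

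Col5a1 relative to Col1a1, the minor chain against the major one, was 0.0761, 0.0751 and 0.129 in fetal replicates 1 to 3. Neonatal values of 0.0628, 0.0620 and 0.0646 and adult values of 0.0672, 0.0610 and 0.0531 overlapped with each other and lay below the fetal ones (exact p = 0.0250, adjusted 0.0417). Without fetal replicate 3 the adult to fetal log2 difference moved from -0.59 to -0.33, with an exact adjusted p of 0.0464. The call was lost without any 1 neonatal library or adult replicate 2 (exact adjusted p = 0.0964) and without adult replicate 3 (exact adjusted p = 0.100). Col5a3 relative to Col5a1 was 0.0328, 0.0358 and 0.0531 in fetal, 0.0771, 0.0781 and 0.0788 in neonatal and 0.0562, 0.0902 and 0.0962 in adult replicates 1 to 3. Its fetal values lay below the rest (exact p = 0.0464, adjusted 0.0464), and its call was lost in 7 leave-one-out fits: those without fetal replicate 1 or 2, any 1 neonatal library, or adult replicate 2 or 3 (exact adjusted p = 0.0759 to 0.0964).

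**Figure D3:**
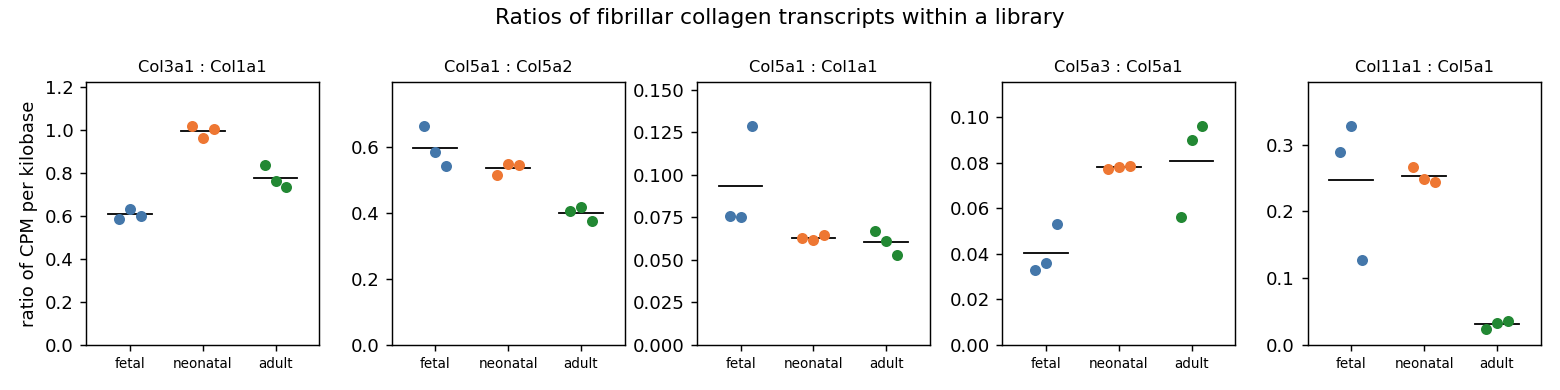
Ratios of CPM per kilobase between fibrillar collagen genes within each library (linear axes from 0), as points by age with replicates 1 to 3 from left to right and horizontal lines for means of 3. Col3a1 to Col1a1 is near 1 in neonatal libraries and lower at the other ages, and Col11a1 to Col5a1 is below 0.04 in adult libraries.

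Fibrils also need enzymes and partners, and 115 genes in 8 lists were counted beside the collagens, of which 105 were in the table and 90 were tested. With edgeR, 42 of the 90 were called from fetal to neonatal cells (31 higher and 11 lower), 65 from neonatal to adult cells (18 higher and 47 lower) and 67 from fetal to adult cells (28 higher and 39 lower). The first count was 26 to 56 with 1 library left out, lowest without neonatal replicate 2 and highest without fetal replicate 3. The backgrounds are the 36.3%, 63.5% and 70.5% given above. By direction, in the same order, they are 18.3% higher and 18% lower, 31.6% higher and 31.8% lower, and 34.9% higher and 35.5% lower. With library size as the only scaling, 29.0% of all genes called from fetal to neonatal cells were higher, against 50.4% with TMM, and the 48 list genes then called were 28 higher and 20 lower.

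Genes listed for procollagen export, the passage in large carriers out of the endoplasmic reticulum, were lower in adult cells. Against neonatal cells 9 of 11 tested were called lower and 0 higher (median log2 -0.62). Against fetal cells 9 were called lower and 0 higher (median -0.52). The list includes coat genes, such as Sec23a and Sec31a, that are not particular to procollagen. Mia2 and Mia3, also listed, were not among the genes counted. Creb3l2, a transcription factor that drives export genes, had the largest fall, with levels of 176 ± 19.9, 133 ± 7.77 and 53.7 ± 3.11 CPM at the fetal, neonatal and adult age (SD, n = 3) and a log2 difference of -1.72 between adult and fetal cells (edgeR adjusted p = 3.73e-07). The smallest called change was in Klhl12, an adaptor that enlarges the carriers (adult 8.27 ± 0.870 CPM, SD, n = 3, log2 -0.35, edgeR adjusted p = 0.0492). That call was lost in 12 of 16 alternatives, among them the removal of any 1 library other than fetal replicate 3.

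The list of procollagen modification and folding covers prolyl and lysyl hydroxylases and chaperones. From fetal to adult cells 6 of 16 tested were called higher and 6 lower (median -0.15), near the 34.9% and 35.5% of all genes. P4ha2, a prolyl 4-hydroxylase subunit, rose at each step, with 147 ± 15.1, 211 ± 5.50 and 359 ± 66.5 CPM at the fetal, neonatal and adult age (SD, n = 3, log2 1.29 against fetal, edgeR adjusted p = 1.57e-05). P3h2, a prolyl 3-hydroxylase, was at 28.2 ± 2.99 CPM in fetal cells (SD, n = 3) and fell in adult cells (log2 -1.42, edgeR adjusted p = 6.05e-06). From neonatal to adult cells the list had 2 higher and 8 lower (median -0.33).

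Genes of propeptide cleavage were called in both directions as well, 3 of 6 tested higher and 3 lower from fetal to adult cells (median 0.09). Pcolce (log2 1.08), which enhances cleavage but is not an enzyme, is among those called higher. Tll1, a tolloid proteinase that removes the carboxyl propeptide, fell to 7.95 ± 2.57 CPM in adult cells, against 175 ± 58.6 in fetal and 123 ± 3.98 in neonatal ones (SD, n = 3, log2 -4.46, edgeR adjusted p = 2.88e-06). Adamts2, which removes the amino propeptide of types I to III, measured 134 ± 47.9, 341 ± 15.2 and 466 ± 23.8 CPM at the fetal, neonatal and adult age (SD, n = 3). It rose between fetal and adult cells (log2 1.79, edgeR adjusted p = 0.000122), while the neonatal to adult difference of 0.45 did not pass (edgeR adjusted p = 0.115).

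Cross-linking enzymes were mostly lower in adult cells, 4 of 6 called lower and 1 higher against fetal cells (median -1.35) and 5 lower and 1 higher against neonatal cells (median -0.94). The exception was Loxl1, a lysyl oxidase best known from elastic fibres, which rose at each step, with 268 ± 79.5, 413 ± 30.7 and 659 ± 67.9 CPM at the fetal, neonatal and adult age (SD, n = 3, log2 1.30 against fetal, edgeR adjusted p = 0.000262). Loxl4, of the same family, was at 25.4 ± 6.03 CPM in fetal cells and fell to 5.07 ± 0.521 in adult ones (SD, n = 3, log2 -2.32, edgeR adjusted p = 2.97e-06).

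Fibril assembly partners, small proteoglycans and other surface molecules, had 5 of 13 tested called higher and 2 lower from fetal to adult cells (median 0.14). Prelp, a proteoglycan that anchors collagen to basement membranes, rose at each step, with 8.96 ± 0.480, 46.7 ± 3.76 and 215 ± 99.6 CPM at the fetal, neonatal and adult age (SD, n = 3, log2 4.58 against fetal, edgeR adjusted p = 2.33e-06). Col9a2, a chain of the type IX collagen that coats type II and XI fibrils, fell from 14.8 ± 10.0 to 2.11 ± 0.658 CPM (SD, n = 3, log2 -2.81, edgeR adjusted p = 0.00330), and its fetal mean was 20.6 CPM without replicate 3.

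Collagen receptors were higher in neonatal than in fetal cells, 4 of 6 tested called higher and 0 lower (median 0.79), and 4 of 6 were lower and 0 higher in adult than in neonatal cells (median -0.99). Itga11, the integrin chain that binds type I collagen on fibroblasts, measured 132 ± 46.1, 466 ± 5.72 and 253 ± 109 CPM in fetal, neonatal and adult cells (SD, n = 3). Its adult to fetal call (log2 0.94, edgeR adjusted p = 0.0401) was lost in 10 of 16 alternatives, among them the fits without fetal replicate 2 or 3, any 1 neonatal library, or adult replicate 2 or 3. Mrc2, an endocytic receptor for collagen fragments, was at 227 ± 38.4 CPM in fetal cells and fell to 139 ± 47.4 in adult ones (SD, n = 3, log2 -0.71, edgeR adjusted p = 0.0154), and this call was lost without adult replicate 2 (edgeR adjusted p = 0.0584).

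Genes of collagen degradation, counted with Timp inhibitors of metalloproteinases, had 7 of 12 tested called higher and 3 lower from fetal to adult cells (median 1.14). The inhibitors Timp1 (log2 2.04) and Timp2 (log2 1.70) were among the 7, and Timp3 (log2 -2.45) was among the 3. The cathepsins Ctsb (log2 2.99), Ctsk (log2 2.31) and Ctsl (log2 1.55) were also among the 7. The metalloproteinases called higher were Mmp9 and Mmp14 (log2 0.73), and Mmp15 and Mmp16 were called lower. Mmp9, a gelatinase made largely by leukocytes, had 0 to 11 reads in fetal libraries, all 11 in fetal replicate 3, and rose to 77.0 ± 60.7 CPM in adult cells (SD, n = 3, edgeR adjusted p = 6.14e-05). These are the adult libraries whose macrophage markers summed to 2984 to 3885 CPM. The part of macrophages in the rise of Mmp9, the cathepsins and the other genes of this list was not tested. Mmp16, a membrane-bound metalloproteinase, fell at each step, with 65.6 ± 15.6, 31.5 ± 0.863 and 6.18 ± 0.690 CPM at the fetal, neonatal and adult age (SD, n = 3, log2 -3.41, edgeR adjusted p = 3.60e-07).

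Of the genes listed as transcription factors of collagen genes, 5 of 20 tested were called higher and 9 lower from fetal to adult cells (median -0.23). Larp6 (log2 1.71), an RNA-binding protein and not a transcription factor, is among the 5. Tcf21, which marks cardiac fibroblasts from the epicardium, measured 11.8 ± 4.25, 86.1 ± 2.07 and 149 ± 66.7 CPM at the fetal, neonatal and adult age (SD, n = 3). It rose between fetal and adult cells (log2 3.65, edgeR adjusted p = 2.21e-05), while the neonatal to adult difference of 0.79 did not pass (edgeR adjusted p = 0.0547). Scx, the tendon factor that activates Col1a1, fell from 15.6 ± 6.95 to 3.64 ± 2.03 CPM (SD, n = 3, log2 -2.09, edgeR adjusted p = 0.00152).

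**Figure D4:**
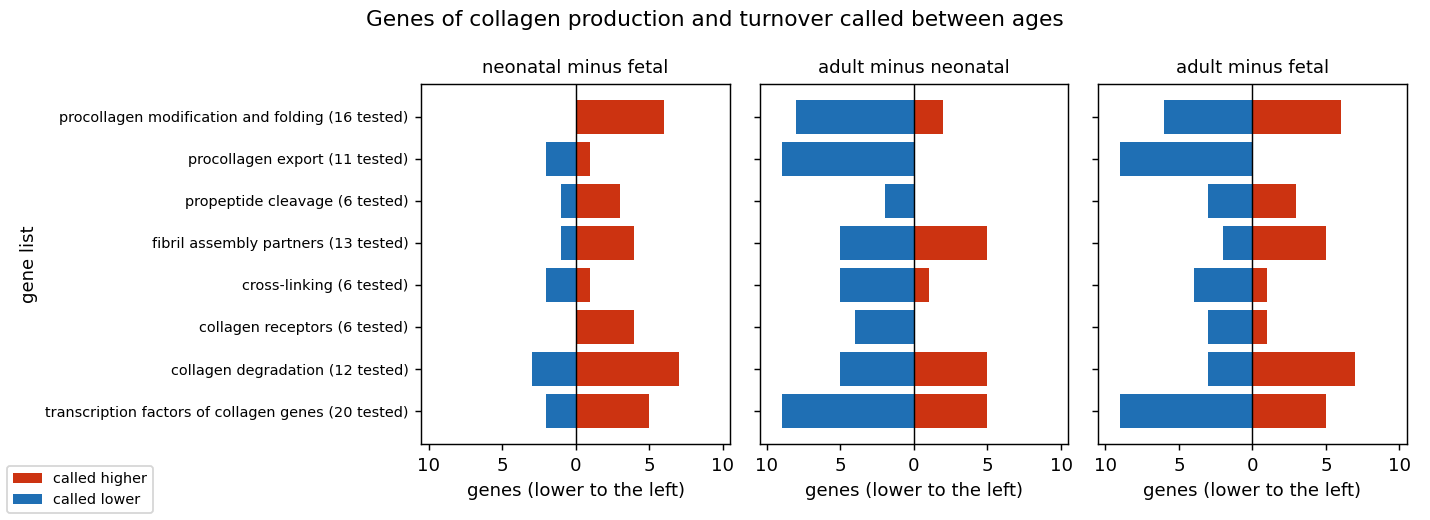
Number of genes called higher (red, to the right) and lower (blue, to the left) by edgeR at an adjusted p under 0.05, for 8 lists of collagen production and turnover and 3 pairs of ages. The adult comparisons of the procollagen export list have 9 genes lower and 0 higher. Collagen degradation, a list that includes metalloproteinase inhibitors, has 7 higher and 3 lower in adult against fetal cells.

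Genes whose pattern over the 9 libraries was most like that of a collagen were found by the root mean square difference of log2 CPM, each gene centred on its own mean, among 8323 tested genes with a mean of at least 10 CPM. All libraries contribute to this measure, which is a description with no test. Closest to Col1a1 were Dysf (0.0947 log2 units), the atypical cadherin Fat1 (0.118) and the microfibril gene Fbn1 (0.128), against a median of 0.700 over all genes. Fbn1, like Col1a1, was highest in neonatal cells (2061, 3302 and 1234 CPM in fetal, neonatal and adult cells by mean). For Col3a1 the nearest were Sdpr (0.151), Afap1l2 (0.151) and C2cd2 (0.152), with a median of 0.850.

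For Col27a1 the nearest were Nav2 (0.161), the nonmuscle myosin gene Myh10 (0.168) and the troponin gene Tnnt2 (0.168), with a median of 1.23. Tnnt2 belongs to the cardiomyocyte markers, which fell over the same libraries. Means of Tnnt2 itself were 2559, 1636 and 309 CPM at the fetal, neonatal and adult age. Every other marker of that list fell further, to at most 1.65 CPM in adult libraries. For Col2a1 no gene came as close: Dhrs9 (0.503), the embryonic myosin gene Myh3 (0.937) and the microfibril gene Mfap2 (0.973) were nearest, with a median of 2.93.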

How the data were processed

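Gene counts of 9 libraries, 3 per age, were used. Per the file headers, the authors counted reads per gene with featureCounts 1.6.3 on an rn6 annotation, giving only annotation and output options, so that program's unstranded default applies. The submitters' processing notes also list FastQC, Trimmomatic 0.39, STAR 2.5.2b and DESeq2. No exon of the 9 genes overlapped another gene in that annotation. A deposited table of normalized values was not used. Exon lengths are other values from the count table, per the file headers.

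The statistical test of the counts was edgeR (version 4.0.16, R 4.3.3): filterByExpr by age, TMM scaling, and a robust quasi-likelihood fit over all 9 libraries with age as the only term, which left 11337 genes. P-values were adjusted by Benjamini-Hochberg over these genes, with 0.05 as the threshold, and SEs derived from the F statistic. The fit was also run on simulated counts with few changed genes and the same spread in all libraries. These data differ on both points, so that run does not bear on the calls given here. Log2 CPM used a prior count of 2. Same-age libraries all differed by more than counting error, by unequal amounts. Chi-square per degree of freedom was 2.09 to 2.84 between neonatal libraries, 6.98 to 45.0 between adult libraries and 4.08 between fetal replicates 1 and 2. Between these and fetal replicate 3 it was 94.4 and 102. Alternatives were DESeq2 1.42.0, its size factors, library size alone, no filter, no robust step, only the ages compared, a replicate block, and each library left out. Named pathway genes are, per list, the largest and smallest adult to fetal log2 change among called genes with at least 10 CPM in the higher age. The members and lists were chosen with earlier results of these data known.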

Additional observations from a re-analysis of the deposited data

How the results depend on the processing

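The number of the 9 collagens called stayed within 1.5 times the main number in every alternative run. From fetal to neonatal cells it was 4 or 5, from neonatal to adult cells 8 or 9, and from fetal to adult cells 5 to 7 against 7. The 9 came from the fit without fetal replicate 3, through Col2a1 at very few reads. With the replicate block these numbers were 4, 8 and 5: the block ended the adult to fetal calls of Col1a1 (adjusted p 0.0534) and Col11a2 (adjusted p 0.0603). Same-numbered libraries did not deviate together (correlations from -0.0649 to 0.0521). With 3 libraries per age this check cannot exclude a pairing, and the labels state none. Library size alone shifted the median of all genes by -0.18 from fetal to neonatal and by -0.12 from fetal to adult cells. It turned the uncalled fetal to neonatal differences of Col5a1 (-0.0656) and Col11a1 (-0.0592), as leaving out fetal replicate 3 did. With 1 library left out these ran from -0.00434 to 0.187 and from -0.288 to 0.319, and the cause was not tested. The pathway count from fetal to neonatal cells ran from 26 to 56 with 1 library left out.

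Adult to fetal log2 differences of the ratios with 1 library left out ran from -0.72 to -0.33 for Col5a1 to Col1a1, from 0.84 to 1.23 for Col5a3 to Col5a1 and from -3.32 to -2.63 for Col11a1 to Col5a1; losing a library leaves fewer assignments, and the cause of the lost calls was otherwise not tested. Ratios with 0.5 reads added kept their calls. Leaving out exon length shifts a log2 ratio equally in every library, so it cannot change these tests. Depth limits Col11a2 and, outside fetal cells, Col2a1.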
